A study of Mus musculus with 18 samples.

Results

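Collagens are the fibrous proteins that give the matrix around fat cells its strength, and lysyl oxidases are the enzymes that cross-link them. The genes described here were taken by symbol, from every gene named Col followed by a chain number, an a and a second number, and from Lox and Loxl1 to Loxl4. Of 18193 genes that the arrays measured by a probe set naming 1 gene only, 46 were members, comprising 42 collagen chains and 4 lysyl oxidases. The probe set of highest mean over the 18 arrays stood for each gene, and 30 members had more than 1 probe set among 90 in all. Col6a6, Col21a1, Col28a1 and Loxl2 were not analysed here.

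RNA was taken from brown adipose tissue (BAT), subcutaneous white adipose tissue (sWAT) and mesenteric white adipose tissue (mWAT) of female Sv129 mice aged 10 weeks. The mice had been kept for 10 days at 28°C, close to thermoneutrality, or at 6°C. Each of the 6 groups (BAT, sWAT and mWAT at 28°C, and the same depots at 6°C) held 3 arrays, described as biological replicates. The mice carried no transgene and received no agent, and which arrays came from 1 mouse is not given.

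All values below are log2 intensities of a probe set, and a difference is a difference between group means ± SE from limma with n = 3 arrays a group. A member was called where its adjusted p (Benjamini-Hochberg over 45037 probe sets) was under 0.01. The array medians lay between 6.97 and 7.20, and the means of 22 members lay under 7.15, the median of those medians. No detection values were used, so where a group lies under the array medians the difference is given in log2 only and its exact size is not known. The title of an array contradicts its listed tissue and temperature. Groups by title held a median of 78.59% of the members' variance, against 42.9% for groups by the listed characteristics, and the share by title was the higher in 43 of 46 members. Markers of brown adipocytes had list means of 11.46 to 12.53 in BAT and at most 10.82 in white fat. Arrays 3 of mWAT at 28 and 6°C stood apart: their lymphocyte list means were 6.98 and 6.85, against 11.09 to 11.31 on the other mWAT arrays, and over all probe sets Pearson's r was 0.991 for this pair and lay between 0.949 and 0.969 when either was set against another mWAT array. Pancreas markers (6 genes) had list means of 14.12 on mWAT array 2 at 6°C, 10.69 on BAT array 3 at 6°C and 10.17 on mWAT array 1 at 28°C, against 4.73 to 7.33 on the other 15 arrays, and their part in the results was not tested. Skeletal muscle markers varied widely within groups (list means of 8.42 to 12.58 in BAT and 7.30 to 11.87 in sWAT at 28°C).

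A collagen molecule is a triple helix, and the chains a cell makes decide what is built. Fibrillar collagens (types I, II, III, V, XI, XXIV and XXVII) form the cables of the interstitial matrix, and fibril-associated collagens (IX, XII, XIV, XVI and others) sit on them. Type IV collagen is the sheet of the basement membrane that surrounds every adipocyte and vessel, type VI forms beaded filaments beside it, and types VIII and X form networks. Lysyl oxidases oxidize lysines of collagen and elastin so that the fibres become cross-linked and insoluble. In fat, collagens are made mostly by fibroblasts and adipocyte progenitors and also by adipocytes, and type VI collagen is known for its build-up in the white fat of obese animals.

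Sequence upstream of the start site was found in RefSeq (GRCm38.p6) for 34 members with 37 windows. Shown are the 250 bases before the start of 4 collagens with large depot differences, chosen to stand for those low in BAT (Col4a6), high in sWAT (Col9a1 and Col17a1) and high in mWAT (Col8a2), with Col4a5 as the neighbour of Col4a6, written from 5′ to 3′ on the strand of the gene. Capitals mark 3 short motifs on either strand, the TATA box letters TATAAA, the CCAAT box letters CCAAT and the GC box letters GGGCGG, and neighbouring GC boxes may overlap.
Col4a6 (chrX:141474077-141474326, minus strand): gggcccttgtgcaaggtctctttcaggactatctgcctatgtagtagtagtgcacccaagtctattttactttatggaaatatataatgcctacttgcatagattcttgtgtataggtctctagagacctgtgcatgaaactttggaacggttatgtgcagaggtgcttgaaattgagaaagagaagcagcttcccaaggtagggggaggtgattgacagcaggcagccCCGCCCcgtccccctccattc
Col4a5 (chrX:141475169-141475418, plus strand): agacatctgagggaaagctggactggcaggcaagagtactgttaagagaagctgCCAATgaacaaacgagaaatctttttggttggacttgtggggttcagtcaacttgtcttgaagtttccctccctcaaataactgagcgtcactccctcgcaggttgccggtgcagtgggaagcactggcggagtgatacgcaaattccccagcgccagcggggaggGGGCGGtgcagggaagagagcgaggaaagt
Col9a1, upstream start (chr1:24177360-24177609, plus strand): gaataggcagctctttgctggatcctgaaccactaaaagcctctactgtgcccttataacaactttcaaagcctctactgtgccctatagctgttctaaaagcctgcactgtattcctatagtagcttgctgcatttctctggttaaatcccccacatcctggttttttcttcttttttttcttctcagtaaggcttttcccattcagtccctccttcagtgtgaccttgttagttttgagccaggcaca
Col9a1, downstream start (chr1:24194953-24195202, plus strand): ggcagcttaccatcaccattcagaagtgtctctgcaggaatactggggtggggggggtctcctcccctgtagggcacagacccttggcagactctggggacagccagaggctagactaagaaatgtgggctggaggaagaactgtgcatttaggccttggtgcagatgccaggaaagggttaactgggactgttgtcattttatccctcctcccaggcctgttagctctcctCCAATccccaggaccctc
Col8a2 (chr4:126286544-126286793, plus strand): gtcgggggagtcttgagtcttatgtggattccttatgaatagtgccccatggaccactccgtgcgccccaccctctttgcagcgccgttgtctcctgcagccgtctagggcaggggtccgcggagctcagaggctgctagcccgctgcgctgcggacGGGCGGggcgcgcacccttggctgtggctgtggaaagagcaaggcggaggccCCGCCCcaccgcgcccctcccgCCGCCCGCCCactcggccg
Col17a1 (chr19:47692043-47692292, minus strand): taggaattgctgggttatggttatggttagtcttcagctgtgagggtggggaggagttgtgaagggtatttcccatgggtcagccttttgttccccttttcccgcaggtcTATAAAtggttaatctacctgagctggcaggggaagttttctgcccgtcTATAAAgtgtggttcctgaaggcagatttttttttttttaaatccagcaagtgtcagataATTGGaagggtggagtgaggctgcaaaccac
Col4a6 and Col4a5 run in opposite directions from a shared stretch of the X chromosome, with 1342 bases between their start sites. Both windows hold 1 GC box, and that of Col4a5 holds a CCAAT box as well. Col9a1 has a pair of start sites 17593 bases apart, and the window of the downstream one holds the only motif of the pair, a CCAAT box. Col8a2 holds 4 GC boxes and Col17a1 holds 2 TATA boxes and 1 CCAAT box. Among all 32851 windows of this length, 12.4% held a TATA box, 33.8% a CCAAT box and 32.7% a GC box, and among the member windows the shares were 13.5%, 35.1% and 59.5%. Such a match is a description of the letters and says nothing of a factor bound there.

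**Figure D1:**
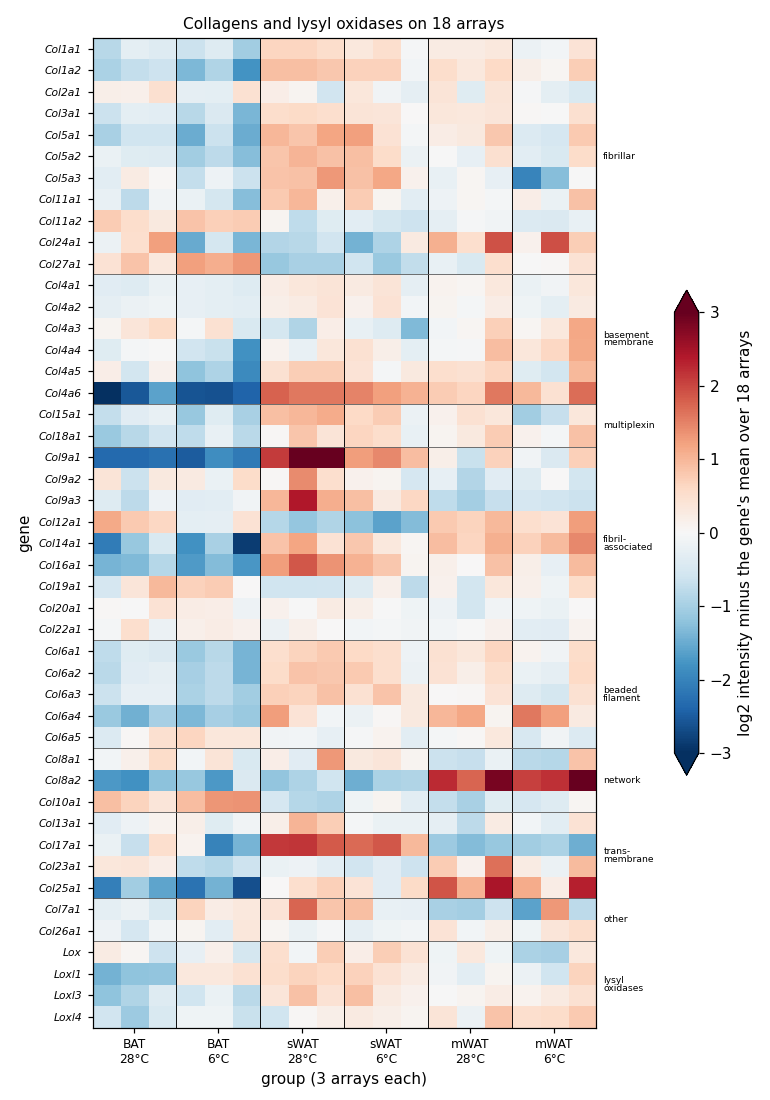
Heat map of the 46 members (rows, by collagen class) on 18 arrays (columns, 3 for each depot and temperature). Colour is the log2 intensity of an array minus the gene's mean over the 18 arrays, with the scale ending at 3 in either direction. The BAT columns are blue for most fibrillar and beaded filament collagens, Col4a6, Col9a1, Col14a1, Col16a1 and Col25a1, while Col8a2 stands out in mWAT and Col17a1 and Col9a1 in sWAT.

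BAT had lower levels of many collagens than either white depot, at either temperature. At 28°C, 25 of 46 members (54.3%) were called between BAT and sWAT, 4 higher and 21 lower in BAT, where 27.5% of all genes were called (14.5% higher and 13% lower). Their median difference was -0.86, against 0.08 over all genes. Between BAT and mWAT at 28°C 17 members (37%) were called, 2 higher and 15 lower, against 32.5% of all genes (17.7% higher, 14.8% lower), with a median of -0.45 against 0.08. At 6°C the count was 21 (45.7%) against sWAT (4 higher, 17 lower, where 26.8% of all genes were called, 13.4% higher and 13.4% lower), with a median of -0.76 against 0.09. It was 21 (45.7%) again between BAT and mWAT at 6°C (4 higher, 17 lower, where 40.1% of all genes were called, 21.3% higher and 18.9% lower), and the median was -0.76 against 0.10. Against mWAT the shares of members called were thus near those of all genes, and most of the members called were lower in BAT.

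The arrays at 28 and at 6°C are separate, so the depot comparisons could be set against each other. The calls at 28 and 6°C are not independent, because the fit pooled the spread of each probe set over all groups. Of the 25 members called against sWAT at 28°C, 20 (80%) were called again at 6°C, and they made up 95.2% of the 21 called at 6°C. Against mWAT 14 members were called at both temperatures (82.4% of those at 28°C and 66.7% of those at 6°C). Every member called at both temperatures kept its direction. The share of all genes called at both temperatures was not determined. Whether such recurrence is particular to the members was therefore not tested. In these bulk samples fewer cells of a type and less RNA per cell cannot be told apart. The list mean of 9 fibroblast markers lay at 10.03 to 10.44 for BAT, 11.43 to 11.55 for sWAT and 10.91 to 11.02 for mWAT at 28°C, with 9.89 to 10.31, 11.24 to 11.56 and 10.69 to 11.30 at 6°C, and its part in the collagen differences was not tested. Without BAT array 1 at 28°C the counts at 28°C were 16 against sWAT and 10 against mWAT. Arrays without overlap between BAT and sWAT, in either direction, were found in 35 of 46 members and 10593 of 18193 genes at 28°C. At 6°C these counts were 32 and 10759. Between BAT and mWAT they were 29 and 10359 at 28°C and 29 and 11078 at 6°C. Between sWAT and mWAT they were 28 and 5358, then 10 and 5717. Such separation is given for single members below as a description only.

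**Figure D2:**
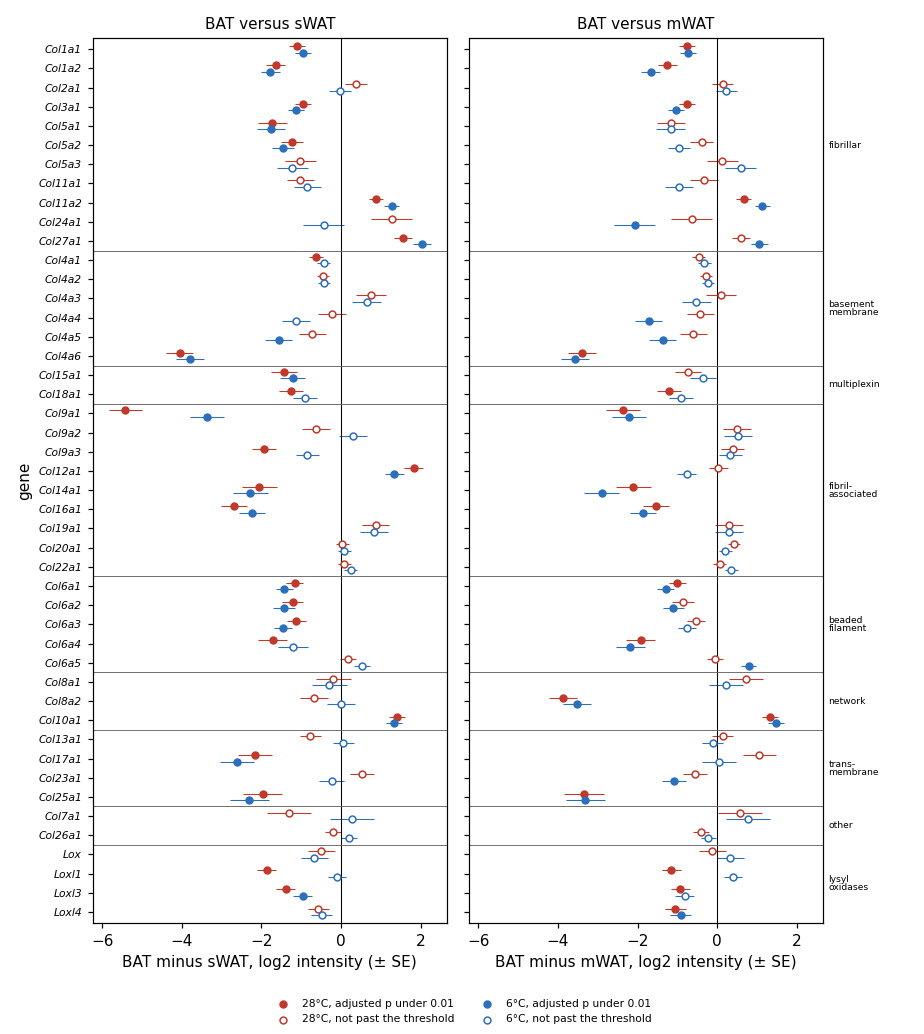
Difference in log2 intensity (x axis, ± SE) between BAT and sWAT (left) or mWAT (right) for each member (y axis) at 28°C (red) and 6°C (blue), with filled points for an adjusted p under 0.01. Most filled points lie left of 0, while Col10a1, Col11a2 and Col27a1 lie to the right in both panels.

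Of the 11 fibrillar collagens, 7 were called between BAT and sWAT at 28°C, with Col1a1, Col1a2, Col3a1, Col5a1 and Col5a2 lower in BAT and Col11a2 and Col27a1 higher, and the class median was -1.02. The same 7 genes were called at 6°C. Of all genes 27.5% were called between BAT and sWAT at 28°C and 26.8% at 6°C. Between BAT and mWAT 4 of the 11 were called at 28°C (36.4%, against 32.5% of all genes), with a class median of -0.39. At 6°C 6 were called there (54.5%, against 40.1% of all genes). Col1a1 and Col1a2 encode the chains of type I collagen, the main fibre of the interstitial matrix. Col1a2 read 11.54, 11.77 and 11.87 in BAT at 28°C, 13.39, 13.41 and 13.31 in sWAT and 13.03, 12.83 and 13.10 in mWAT. At 6°C it read 11.16, 11.59 and 10.71 in BAT, 13.19, 13.18 and 12.41 in sWAT and 12.67, 12.57 and 13.25 in mWAT. No BAT array reached any white array at the same temperature. The differences at 28°C were -1.64 ± 0.24 against sWAT, 3.12-fold lower (adjusted p = 0.000113 by limma), and -1.26 ± 0.24 against mWAT, 2.39-fold lower (adjusted p = 0.000792). At 6°C they were -1.78 ± 0.24 and -1.67 ± 0.24, and all 4 calls held in every alternative tried.

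Col1a1 differed less than its partner chain in its probe set of highest mean (-1.11 ± 0.20 against sWAT and -0.77 ± 0.20 against mWAT at 28°C), while the other probe set gave -2.10 and -1.64. Its levels were 11.59, 12.14 and 12.04 in BAT, 13.08, 13.07 and 12.96 in sWAT and 12.67, 12.67 and 12.75 in mWAT at 28°C, so the BAT arrays lay under all white arrays. At 6°C the differences were -0.96 ± 0.20 and -0.75 ± 0.20. The call against sWAT at 6°C was lost without BAT array 3, without sWAT array 2 and with only the compared groups fitted (adjusted p up to 0.0141). Against mWAT the call was lost in 8 of 27 alternatives at 28°C (adjusted p up to 0.0404) and in 7 at 6°C (up to 0.0468), including without BAT array 1 and without mWAT array 3 at either temperature. Col3a1, the type III chain of thin reticular fibres, was lower in BAT than in sWAT by 0.95 ± 0.20 log2 units at 28°C and by 1.13 ± 0.20 at 6°C. The first of these calls was lost without BAT array 1 (adjusted p = 0.0136) and the second with only the compared groups fitted (adjusted p = 0.0139), and that against mWAT at 28°C (-0.75 ± 0.20) was lost in 15 of 27 alternatives, each array of BAT and of mWAT at 28°C among them.

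Col5a1 and Col5a2 encode type V chains, which are known to set the diameter of type I fibrils. Col5a1 read 9.58, 9.96 and 9.94 in BAT at 28°C, against 11.55, 11.39 and 11.73 in sWAT, a difference of -1.73 ± 0.36 (3.31-fold lower, adjusted p = 0.00173 by limma) that held in every alternative. Against mWAT its difference of -1.16 ± 0.36 was not past the threshold (adjusted p = 0.0178), although the other 2 probe sets of the gene were called there (-1.11 and -1.25). Col5a2 was lower in BAT than in sWAT by 1.23 ± 0.28 at 28°C and 1.46 ± 0.28 at 6°C, and the call at 28°C was lost in 5 of 27 alternatives (BAT array 2 or 3 or any sWAT array left out, adjusted p up to 0.0154). Col5a3, a chain that adipose tissue also makes, gave -1.02 against sWAT and 0.13 against mWAT at 28°C, neither of them called. It was higher in sWAT than in mWAT at 6°C by 1.81 ± 0.39 (adjusted p = 0.00518), where mWAT read 8.41, 9.14 and 10.39, and that call was lost without sWAT array 1 or 2 or mWAT array 1 or 2 at 6°C, and with the skeletal muscle list mean as a covariate or only the compared groups fitted (adjusted p up to 0.0936).

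Col27a1, a fibrillar chain first known from cartilage, ran the other way. Its levels were 10.21, 10.61 and 10.09 in BAT at 28°C and 10.997, 10.87 and 11.08 at 6°C. In sWAT they were 8.63, 8.80 and 8.79 at 28°C and 9.18, 8.65 and 9.02 at 6°C. All BAT arrays lay above all sWAT arrays. BAT exceeded sWAT by 1.56 ± 0.22 at 28°C (2.95-fold, adjusted p = 8.8e-05) and by 2.03 ± 0.22 at 6°C (4.09-fold, adjusted p = 1.2e-05), and mWAT at 6°C by 1.06 ± 0.22 (2.08-fold, adjusted p = 0.00128). These 3 calls held in every alternative, and the other probe set gave 1.53, 1.95 and 1.23. Markers of cartilage and bone were at list means of 5.61 to 6.04 on all 18 arrays, under the array medians. Single genes of the list lay higher in some groups. At 28 and 6°C Cnmd had means of 7.65 and 8.35 in BAT, 6.55 and 6.70 in sWAT and 5.17 and 5.64 in mWAT. Sox9 had 7.98 and 6.81, 9.42 and 8.84, and 6.69 and 6.87 in these depots, and Cytl1 8.45 and 8.22, 8.47 and 8.52, and 10.22 and 10.33. The part of cartilage in the Col27a1 values was not tested.

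Col11a2, a minor fibrillar chain, was also higher in BAT, by 0.88 ± 0.18 against sWAT at 28°C and by 1.27 ± 0.18 and 1.13 ± 0.18 against sWAT and mWAT at 6°C, all at levels between 4.96 and 6.59 and so under the array medians. The call against sWAT at 28°C was lost without BAT array 1 and with only the compared groups fitted (adjusted p up to 0.0313). Its call against mWAT at 28°C (0.66 ± 0.18) was lost in 18 of 26 alternatives. Col24a1 was lower in BAT than in mWAT at 6°C (-2.08 ± 0.52, adjusted p = 0.00419), a call lost in 4 of 26 alternatives, among them without BAT array 1 or 3 or mWAT array 2. Col2a1 and Col11a1 were not called in any comparison with BAT, their differences lying between -1.02 and 0.37.

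Of the 5 type VI chains 4 were called lower in BAT than in sWAT at 28°C, and 3 of these, Col6a1, Col6a2 and Col6a3, the chains of the beaded filament, again at 6°C. Of all genes 13% and 13.4% were called lower there. Between BAT and mWAT 2 of the 5 were called at 28°C, both lower (40%, against 32.5% of all genes). At 6°C 4 were called there, 3 of them lower (80%, against 40.1% of all genes). Col6a1 read 11.40, 11.78 and 11.73 in BAT at 28°C, 12.66, 12.81 and 12.93 in sWAT and 12.62, 12.50 and 12.81 in mWAT. At 6°C it read 11.04, 11.33 and 10.76 in BAT, 12.75, 12.66 and 11.996 in sWAT and 12.25, 12.06 and 12.72 in mWAT. BAT lay under every white array at the same temperature. Its differences were -1.16 ± 0.22 against sWAT (2.24-fold lower, adjusted p = 0.000791) and -1.002 ± 0.22 against mWAT (adjusted p = 0.00198, and 0.0123 without BAT array 1) at 28°C, and -1.43 ± 0.22 and -1.30 ± 0.22 at 6°C.

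Col6a2 differed from sWAT by -1.22 ± 0.27 at 28°C and by -1.43 ± 0.27 at 6°C, and Col6a3 by -1.12 ± 0.23 and -1.46 ± 0.23. The calls at 28°C were lost without BAT array 1 (adjusted p = 0.0103 for Col6a3), and that of Col6a2 was also lost without sWAT array 2 (adjusted p up to 0.016). Between BAT and mWAT Col6a2 was called at 6°C alone (-1.10 ± 0.27), a call lost without BAT array 3 or mWAT array 3 (adjusted p up to 0.0233). Against mWAT Col6a3 gave -0.53 and -0.77 and was not called at either temperature. Col6a4, a chain of later discovery, differed between BAT and mWAT by -1.93 ± 0.37 at 28°C and -2.18 ± 0.37 at 6°C, with BAT at 5.02 to 5.45 on all 6 arrays, under the array medians. Its second probe set, dimmer still at a mean of 3.69, gave -0.99 and -0.12, and with the mean of both the call at 6°C was lost (adjusted p = 0.0126). Against sWAT at 28°C Col6a4 gave -1.71 ± 0.37, a call lost in 3 of 26 alternatives (without BAT array 2, without sWAT array 1 and with the mean of both probe sets, adjusted p up to 0.018). Col6a5 lay near the bottom of the scale in every group (2.79 to 3.92), and its call as higher in BAT than in mWAT at 6°C (0.78 ± 0.20) was lost in 7 of 26 alternatives, among them without BAT array 1 or mWAT array 1 or 3 (adjusted p up to 0.0264).

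The fibril-associated class held the largest difference of any member, that of Col9a1 between BAT and sWAT at 28°C. Of its 9 measured chains 5 were called between BAT and sWAT at 28°C, with Col9a1, Col9a3, Col14a1 and Col16a1 lower in BAT and Col12a1 higher. The share of all genes called there was 27.5%. Between BAT and mWAT 3 of the 9 were called at each temperature, all lower in BAT. This is 33.3% of the class, against 32.5% of all genes at 28°C and 40.1% at 6°C. Col16a1, the type XVI chain, read 7.50, 7.56 and 8.03 in BAT at 28°C, 10.14, 10.75 and 10.24 in sWAT and 9.03, 8.91 and 9.77 in mWAT. At 6°C the readings were 7.20, 7.58 and 7.15 in BAT, 9.94, 9.70 and 8.97 in sWAT and 9.06, 8.65 and 9.84 in mWAT. The 3 depots at 28°C lay in the order BAT, mWAT, sWAT, although sWAT and mWAT did not differ past the threshold (1.14 ± 0.32, adjusted p = 0.0367). BAT differed from sWAT by -2.68 ± 0.32 (6.42-fold lower, adjusted p = 2e-05) and from mWAT by -1.54 ± 0.32 (2.91-fold lower, adjusted p = 0.00154) at 28°C, and by -2.23 ± 0.32 and -1.87 ± 0.32 at 6°C. All 4 calls held in every alternative.

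Col14a1, a chain of dense connective tissue that fibroblasts make, read 7.74, 8.71 and 9.38 in BAT at 28°C and 8.02, 8.86 and 6.997 at 6°C. White arrays lay between 9.91 and 11.27. The BAT arrays were spread widely but stayed under all 12 white arrays. The differences were -2.05 ± 0.44 against sWAT and -2.11 ± 0.44 against mWAT at 28°C (4.33-fold lower, adjusted p = 0.00136), and -2.28 ± 0.44 and -2.90 ± 0.44 at 6°C (7.46-fold lower for mWAT, adjusted p = 7.68e-05). Of these only the call against sWAT at 28°C was lost, without BAT array 1, without sWAT array 2 or with only the compared groups fitted (adjusted p up to 0.0128).

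Col9a1 encodes a chain of type IX collagen, best known from cartilage. It read 3.40, 3.41 and 3.49 in BAT at 28°C and 3.23, 3.87 and 3.62 at 6°C. In sWAT it read 7.83, 9.63 and 9.09 at 28°C and 6.99, 7.18 and 6.67 at 6°C. In mWAT the values were 5.91, 5.07 and 6.43 at 28°C and 5.63, 5.29 and 6.45 at 6°C. The 3 depots did not overlap at either temperature. BAT differed from sWAT by -5.42 ± 0.42 at 28°C (adjusted p = 4.12e-07) and by -3.37 ± 0.42 at 6°C, and from mWAT by -2.37 ± 0.42 and -2.22 ± 0.42, while sWAT exceeded mWAT at 28°C by 3.05 ± 0.42 (adjusted p = 0.000179, and 0.025 with only the compared groups fitted). The dimmer of its probe sets, with a mean of 4.85, gave -1.29 and 0.24 for BAT against sWAT and mWAT at 28°C, so the difference from mWAT rests on 1 probe set, and with the mean of both the call against mWAT at 6°C was lost (adjusted p = 0.0511).

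Col9a3, another type IX chain, read 7.64, 9.04 and 7.73 in sWAT at 28°C, above all BAT (5.86 to 6.49) and mWAT arrays (5.62 to 5.94). The differences were -1.93 ± 0.29 for BAT against sWAT and 2.32 ± 0.29 for sWAT against mWAT, and both calls were lost with only the compared groups fitted (adjusted p = 0.0107 and 0.0196). At 6°C neither difference passed (-0.85 ± 0.29 and 1.17 ± 0.29). Col9a2 was not called, and it too was highest on sWAT array 2 at 28°C (7.13). That array also had the highest list mean of 12 mammary epithelium markers, 11.33. The list mean was 9.37 to 11.33 in sWAT at 28°C and 8.80 to 8.95 at 6°C, with 2 to 4 markers under the array median, against 4.81 to 7.45 in BAT and 6.07 to 7.28 in mWAT, with 5 to 12 markers under it. The part of the mammary gland in the type IX values was not tested.

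Col12a1, a fibril-associated chain of stretched tissues such as tendon, was low in sWAT only. It read 5.93, 5.62 and 5.89 in sWAT at 28°C, 7.93, 7.57 and 7.41 in BAT and 7.58, 7.47 and 7.78 in mWAT. At 6°C it read 5.57, 5.19 and 5.48 in sWAT, 6.50, 6.52 and 7.22 in BAT and 7.30, 7.20 and 8.05 in mWAT. No sWAT array reached those of the other depots. BAT exceeded sWAT by 1.82 ± 0.24 at 28°C (adjusted p = 3.67e-05) and by 1.33 ± 0.24 at 6°C, and sWAT differed from mWAT by -1.80 ± 0.24 and -2.10 ± 0.24. Of its 3 dimmer probe sets, with means of 3.28 to 5.55, none was called between sWAT and mWAT (-0.28 to -0.10 at 28°C), and those calls were lost with the mean of all 4 (adjusted p up to 0.0282). Col19a1, Col20a1 and Col22a1 were not called in any comparison.

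**Figure D3:**
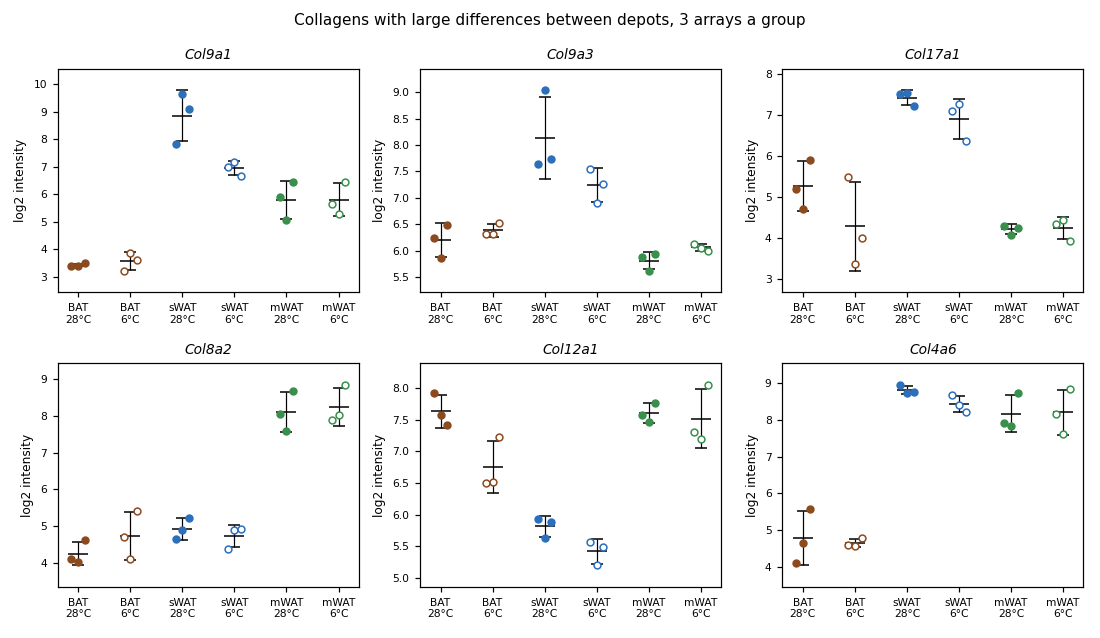
Log2 intensity (y axes, scaled to each gene) of 6 collagens on the 3 arrays of each group (x axis). Points are arrays, filled at 28°C and open at 6°C, and bars are mean ± SD. Col9a1 separates all 3 depots, Col17a1 is high in sWAT, Col8a2 in mWAT, Col12a1 is low in sWAT and Col4a6 is low in BAT.

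Among basement membrane collagens the depots differed in 1 chain far more than in the rest. Type IV collagen of most tissues is built of Col4a1 and Col4a2, while Col4a3 to Col4a6 form variant networks in selected membranes. Col4a6 read 4.11, 4.64 and 5.57 in BAT at 28°C and 4.59, 4.56 and 4.78 at 6°C. In sWAT it read 8.96, 8.75 and 8.77 at 28°C and 8.67, 8.41 and 8.23 at 6°C, and in mWAT 7.93, 7.83 and 8.75 and 8.16, 7.63 and 8.85. All BAT arrays lay under the array medians and all white arrays above them. The differences from sWAT were -4.05 ± 0.35 at 28°C (adjusted p = 9.6e-07) and -3.79 ± 0.35 at 6°C, and those from mWAT -3.40 ± 0.35 and -3.57 ± 0.35. The other probe set gave -3.41, -3.02, -2.66 and -2.65 for these comparisons, each called, and no alternative ended a call.

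Col4a5, whose start lies beside that of Col4a6 in the sequences above, differed far less at 28°C (-0.72 against sWAT and -0.60 against mWAT, neither called). At 6°C it was lower in BAT, by 1.57 ± 0.34 against sWAT (adjusted p = 0.0025) and by 1.37 ± 0.34 against mWAT (adjusted p = 0.00418). These calls were lost without BAT array 3 at 6°C among other alternatives (adjusted p up to 0.0439 and 0.0564), and the second probe set gave -0.13 and -0.15. Col4a1 was lower in BAT than in sWAT at 28°C by 0.63 ± 0.17 (adjusted p = 0.00969), a call lost in 16 of 27 alternatives, among them each array of these groups left out. Col4a2, which shares its start region with Col4a1, was not called (-0.46 and -0.27 against sWAT and mWAT at 28°C). Col4a4 was lower in BAT than in mWAT at 6°C by 1.72 ± 0.34 (adjusted p = 0.000814), lost only with the compared groups fitted alone (0.0148). Col4a3 was not called anywhere.

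Types XV and XVIII lie between basement membrane and fibres, and the end of type XVIII is the source of endostatin. Col15a1 was lower in BAT than in sWAT by 1.43 ± 0.31 at 28°C (10.15, 10.53 and 10.64 against 11.77, 11.86 and 11.99) and by 1.22 ± 0.31 at 6°C. The first call was lost without BAT array 1 or sWAT array 3 (adjusted p up to 0.0149) and the second in 8 of 27 alternatives. Col18a1 read 8.68, 8.96 and 9.20 in BAT at 28°C, under sWAT (9.83 to 10.63) and mWAT (9.87 to 10.55), with differences of -1.26 ± 0.30 and -1.21 ± 0.30. Each was lost without BAT array 1 or 2 and without 2 of the white arrays compared (adjusted p up to 0.0261), while the second probe set of the gene was called in the same direction in all 4 comparisons of BAT with white fat (-1.12 to -0.94).

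Network collagens split the depots in different ways. Col8a2, a short chain known from the membrane under the corneal endothelium, read 8.06, 7.59 and 8.68 in mWAT at 28°C and 7.89, 8.03 and 8.85 at 6°C. BAT read 4.02 to 5.41 and sWAT 4.37 to 5.23 over both temperatures. It was thus above the array medians in mWAT alone. At 28°C BAT differed from mWAT by -3.87 ± 0.35 (adjusted p = 9.41e-07) and sWAT by -3.19 ± 0.35 (adjusted p = 2.34e-05), and at 6°C by -3.52 ± 0.35 and -3.53 ± 0.35, calls that held in every alternative that kept the gene. The list mean of 8 mesothelium markers was 9.82 to 11.19 in mWAT, with no marker under the array median, and at most 7.08 elsewhere, with at least 5 of 8 under it. The part of mesothelium in Col8a2 was not tested. Its partner chain Col8a1 was not called in any comparison.

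Col10a1, the chain of growth cartilage, was higher in BAT by 1.41 ± 0.20 against sWAT and by 1.33 ± 0.20 against mWAT at 28°C, and by 1.32 ± 0.20 and 1.48 ± 0.20 at 6°C. All of its values (3.54 to 5.85) lay under the array medians. BAT arrays lay above all white arrays, and the 4 calls held in every alternative that kept it.

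Transmembrane collagens are made by epithelia, nerve and muscle rather than by fibroblasts alone. Col17a1, a chain of the hemidesmosomes that anchor epithelial cells, read 7.52, 7.54 and 7.22 in sWAT at 28°C and 7.10, 7.26 and 6.37 at 6°C. In BAT it read 5.20, 4.71 and 5.91 at 28°C and 5.49, 3.38 and 4.01 at 6°C, and in mWAT 3.94 to 4.45. Levels in sWAT were above those of both other depots. They exceeded mWAT by 3.21 ± 0.42 at 28°C (adjusted p = 0.000118) and by 2.66 ± 0.42 at 6°C, and BAT differed from sWAT by -2.16 ± 0.42 and -2.62 ± 0.42, all calls that held in every alternative that kept the gene. The mammary list set out above and a list of 8 epidermal markers (6.97 to 7.50 in sWAT, at most 6.28 elsewhere) share Krt5 and Krt14, and both lists were highest in sWAT. At 28°C Krt5 had means of 9.91 in sWAT, 6.81 in BAT and 5.85 in mWAT, and Krt14 10.96, 5.72 and 6.70. Sbsn (11.06, 9.46 and 10.79) and Calml3 (5.35, 4.21 and 4.04) were also highest in sWAT. Krt1 (4.28, 4.38 and 4.20), Krt10 (8.83, 9.13 and 8.52), Lor (4.69, 5.03 and 4.12) and Dsg1a (3.41, 3.23 and 3.61) were not. The part of either list was not tested.

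Col25a1, a transmembrane chain made by neurons and developing muscle, read 4.22, 5.23 and 4.68 in BAT, 6.28, 6.77 and 6.98 in sWAT and 8.15, 7.30 and 8.72 in mWAT at 28°C. At 6°C it read 4.04, 4.85 and 3.62 in BAT, 6.66, 5.93 and 6.83 in sWAT and 7.37, 6.48 and 8.60 in mWAT. BAT lay under both white depots. The differences from mWAT were -3.35 ± 0.50 at 28°C (adjusted p = 8.39e-05) and -3.31 ± 0.50 at 6°C, and those from sWAT -1.97 ± 0.50 and -2.30 ± 0.50. Its other probe set, of nearly the same mean (5.98), gave 0.24 and 0.56 against mWAT and 0.52 and 0.73 against sWAT, none called, so the gene's difference rests on 1 probe set. Both calls against sWAT were lost with the mean of the probe sets and without single arrays of the depots compared (adjusted p up to 0.0324 at 28°C). Col13a1 was not called in any comparison, nor were Col7a1 and Col26a1.

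Between sWAT and mWAT 5 of 46 members (10.9%) were called at each temperature, a share close to that of all genes. At 28°C 3 were higher (Col9a1, Col9a3 and Col17a1) and 2 lower in sWAT (Col8a2 and Col12a1), where 7.87% of all genes were called (3.05% higher and 4.82% lower). At 6°C 5 were called, 2 higher (Col5a3 and Col17a1) and 3 lower (Col8a2, Col12a1 and Col27a1), where 10.2% of all genes were called (5.17% higher and 5.01% lower). The calls of Col9a1 and Col9a3 were lost with only the compared groups fitted. Col17a1, Col8a2 and Col12a1 were called at both temperatures. The call of Col27a1 (-0.97 ± 0.22, adjusted p = 0.00863) was lost in 18 of 27 alternatives.

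Of the 4 lysyl oxidases 3 were called lower in BAT than in mWAT at 28°C, and 2 of these also than in sWAT. Of all genes 14.8% and 13% were called lower in these comparisons, and 4 genes are too few to speak for a family. Loxl1, the member known for its role in elastic fibres, read 9.003, 9.24 and 9.25 in BAT, 10.97, 11.10 and 11.03 in sWAT and 10.32, 10.12 and 10.53 in mWAT at 28°C. At 6°C it read 10.75, 10.75 and 10.88 in BAT, 11.13, 10.87 and 10.67 in sWAT and 10.25, 9.84 and 11.09 in mWAT. The BAT arrays lay under every white array at 28°C and among them at 6°C. BAT was lower at 28°C by 1.87 ± 0.23 than sWAT (3.66-fold, adjusted p = 2.69e-05 by limma) and by 1.16 ± 0.23 than mWAT (2.23-fold, adjusted p = 0.00114, and 0.0108 with the skeletal muscle list mean as a covariate). At 6°C the differences were -0.10 (95% interval -0.60 to 0.40) and 0.40 (-0.10 to 0.90), not called.

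**Figure D4:**
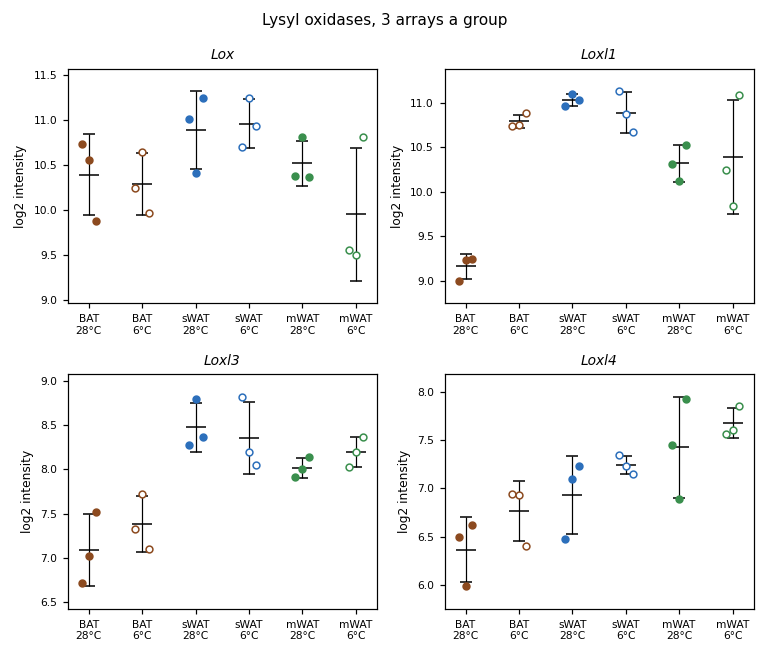
Log2 intensity (y axes, scaled to each gene) of the 4 lysyl oxidases on the 3 arrays of each group (x axis). Points are arrays, filled at 28°C and open at 6°C, and bars are mean ± SD. Loxl1 in BAT moves from 9.003 to 9.25 at 28°C up to 10.75 to 10.88 at 6°C, with no such step in the white depots.

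Loxl1 was the only member called here for the cold within a depot. In BAT it rose by 1.63 ± 0.23 at 6°C, 3.09-fold (adjusted p = 0.000504 by limma), and its other probe set, which read 7.33, 7.30 and 7.25 at 28°C and 8.98, 9.28 and 9.45 at 6°C, rose by 1.95 ± 0.24 (adjusted p = 0.000168). The call held in all 27 alternatives. In sWAT the change was -0.14 (95% interval -0.64 to 0.36) and in mWAT 0.07 (-0.43 to 0.57). The difference between the responses was 1.77 ± 0.33 for BAT against sWAT (adjusted p = 0.0157) and 1.56 ± 0.33 for BAT against mWAT (adjusted p = 0.0243), neither past the threshold of 0.01.

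Loxl3 was lower in BAT than in sWAT by 1.39 ± 0.24 at 28°C (6.71, 7.03 and 7.52 against 8.27, 8.79 and 8.36, adjusted p = 0.000381), a call that held in every alternative, and by 0.97 ± 0.24 at 6°C, a call lost in 7 of 27. Its call against mWAT at 28°C (-0.93 ± 0.24) was lost in 10 of 27 alternatives, each of the mWAT arrays and BAT array 1 or 2 at 28°C left out among them. Loxl4 was lower in BAT than in mWAT by 1.06 ± 0.26 at 28°C and 0.91 ± 0.26 at 6°C, calls lost in 9 and 19 of 26 alternatives. Both calls were lost with the mean of its 2 probe sets. Over the alternatives the differences from mWAT were as small as -0.33 and -0.30 (limma adjusted p up to 0.213 and 0.244). The dimmer probe set of Loxl4, with a mean of 5.12, gave 0.92 for BAT against sWAT at 28°C, where the other gave -0.57. Lox, the founding member of the family, was not called in any comparison, with differences of -0.50 and -0.13 between BAT and the white depots at 28°C and 95% intervals of -1.22 to 0.23 and -0.85 to 0.60.

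In BAT 1 of 46 members was called for 6 against 28°C, where 5.33% of all genes were called, and the median change was -0.16 against 0.01 over all genes. In sWAT limma called 0, where 0.742% of all genes were called, with a median of -0.26 against -0.002. In mWAT limma called 0, where 0.0055% of all genes were called, with a median of -0.06 against 0.006. At an unadjusted limma p under 0.05 there were 15, 5 and 3 members in BAT, sWAT and mWAT. Of all 18193 genes 4822, 2582 and 837 had such a p. With 3 arrays a group these counts do not show that the other members stayed the same.

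**Figure D5:**
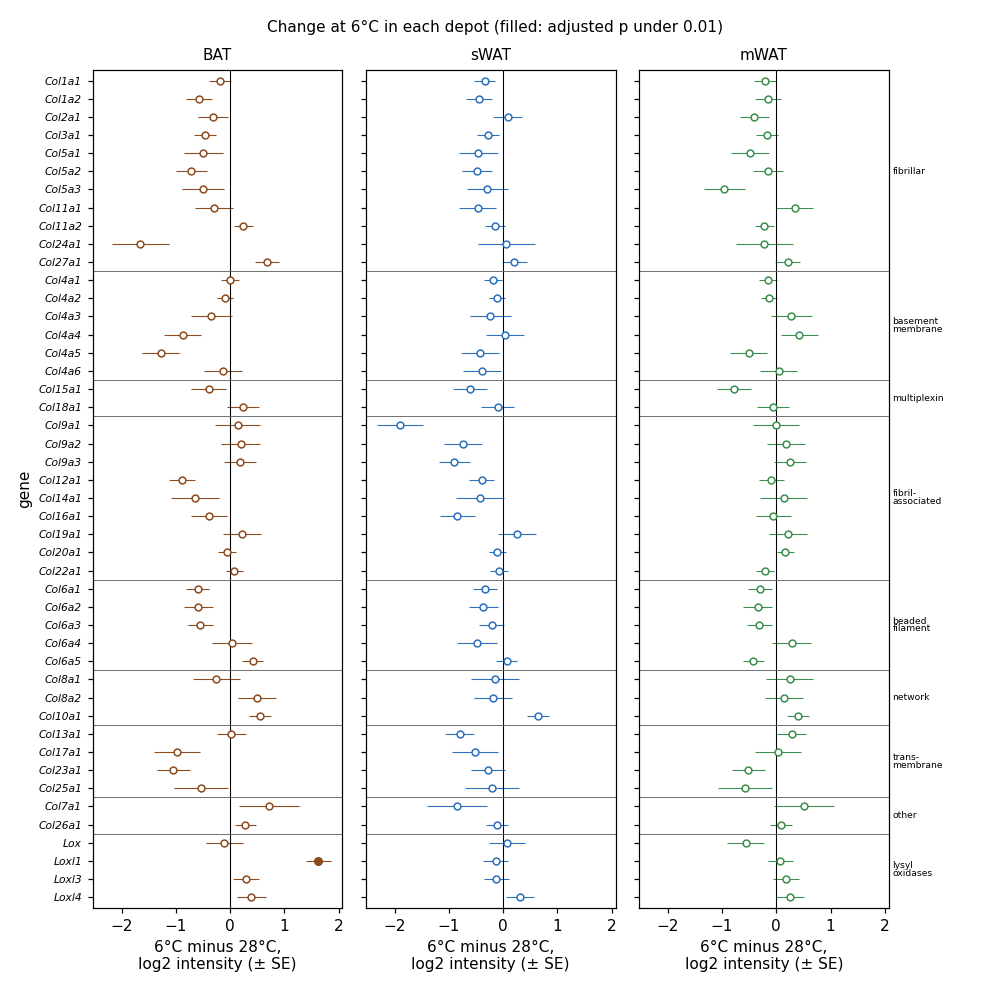
Change in log2 intensity from 28 to 6°C (x axes, ± SE) of each member (y axis) in BAT, sWAT and mWAT, with filled points for an adjusted p under 0.01. Loxl1 in BAT is the only filled point, at 1.63, while Col9a1 in sWAT lies farthest left at -1.90 without passing.

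The values nearest the threshold in BAT were those of Col12a1 (-0.89 ± 0.24, adjusted p = 0.024), Col4a5 (-1.28 ± 0.34, adjusted p = 0.0252) and Col23a1 (-1.04 ± 0.31, adjusted p = 0.0384), each with all arrays at 6°C under those at 28°C. Arrays without overlap, in either direction, were common in BAT, in 12 of 46 members and 7255 of 18193 genes. Col12a1, Col4a5 and Col23a1 all passed when both mWAT arrays 3, which take part in the pooled spread, were left out. Col12a1 and Col4a5 also passed without mWAT array 3 at 6°C alone, and Col23a1 without that at 28°C alone. Col23a1, a transmembrane chain, has a probe set of second highest mean (6.42) that was called in BAT. It read 6.90, 7.07 and 6.69 at 28°C and 4.59, 5.09 and 4.47 at 6°C, a change of -2.17 ± 0.23 (adjusted p = 6e-05), against 6.28 to 7.19 on the white arrays. Its readings in BAT at 6°C lay under the array medians, and at 6°C it differed between BAT and sWAT by -1.79 and between BAT and mWAT by -2.14, both called. The probe set of highest mean was called between BAT and mWAT at 6°C alone (-1.09, adjusted p = 0.00907), a call lost in 19 of 26 alternatives. Col24a1 gave -1.65 ± 0.52 (adjusted p = 0.0522) and Col27a1 0.68 ± 0.22 (adjusted p = 0.0628). For the type I and III chains the changes in BAT were -0.19 for Col1a1, -0.58 for Col1a2 and -0.47 for Col3a1.

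In sWAT the change nearest the threshold was that of Col9a1, -1.90 ± 0.42 (adjusted p = 0.0343), from 7.83, 9.63 and 9.09 at 28°C to 6.99, 7.18 and 6.67 at 6°C. Col9a3 gave -0.90 (adjusted p = 0.167). The mammary list mean fell as well, from 9.37 to 11.33 at 28°C to 8.80 to 8.95 at 6°C. All 12 markers had lower means at 6°C, with a median change of -0.71, and limma called 0 of them. The largest falls were those of Csn2 (means of 9.99 at 28°C and 4.197 at 6°C) and Csn1s1 (8.93 and 3.44). Krt18 (13.64 and 13.46), Epcam (12.58 and 11.88) and Krt5 (9.91 and 9.32) moved far less. The part of the list in the Col9a1 and Col9a3 changes was not tested. Col10a1 gave 0.65 (adjusted p = 0.154), Col13a1 -0.80 (adjusted p = 0.183) and Col16a1 -0.84 (adjusted p = 0.276). In mWAT the lowest values were those of Col5a3 (-0.95) and Col15a1 (-0.77), both at an adjusted p of 1, and in both genes array 3 at 6°C lay above the other arrays at 6°C.

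Tests of the difference between cold responses called 0 members for BAT against sWAT (5 at an unadjusted p under 0.05), 0 for BAT against mWAT (4) and 0 for sWAT against mWAT (3), where limma called 0.467%, 0.566% and 0% of all genes. Of all 18193 genes 2703, 2865 and 1025 had an unadjusted p under 0.05 in these tests. After Loxl1 the next were Col9a1 for BAT against sWAT (2.04 ± 0.59, adjusted p = 0.106) and Col6a5 for BAT against mWAT (0.84 ± 0.28, adjusted p = 0.14).

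Genes that work with collagens are given here by list, and each count at 28°C is to be read against the 27.5% of all genes called between BAT and sWAT (13% lower in BAT) and the 32.5% called between BAT and mWAT (14.8% lower). Of 14 small leucine-rich proteoglycans and other fibril partners, 12 were called between BAT and sWAT at 28°C, 11 of them lower in BAT, and 11 between BAT and mWAT, 10 of them lower, with medians of -1.23 and -1.46. These are 85.7% and 78.6% of the list, against 27.5% and 32.5% of all genes. Thbs1, a matrix protein that binds collagen and activates TGF-beta, differed from sWAT by -3.18 ± 0.45 and from mWAT by -3.93 ± 0.45. Fmod, a proteoglycan that guides fibril assembly, differed by -2.06 ± 0.22 and -3.11 ± 0.22, and Thbs2 by -2.21 ± 0.26 and -2.77 ± 0.26. Prelp, which anchors basement membranes to collagen, was the one called higher in BAT (1.15 ± 0.23 and 1.03 ± 0.23). Of the 14, 2 were called in BAT for the cold, and both fell, Ogn by 1.13 ± 0.25 (adjusted p = 0.00851) and Dcn by 0.66 ± 0.15 (adjusted p = 0.00801).

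Elastic fibre proteins include elastin, which lysyl oxidases also cross-link. The list had 8 of 14 called between BAT and sWAT at 28°C (7 lower) and 10 between BAT and mWAT (9 lower), which is 57.1% and 71.4% of the list against 27.5% and 32.5% of all genes. Eln, elastin itself, differed by -1.74 ± 0.31 and -1.94 ± 0.31, and Fbn2, a fibrillin, by -2.73 ± 0.60 and -2.81 ± 0.60. Fbln1, a fibulin, differed from mWAT by -3.15 ± 0.28. Ltbp2 was higher in BAT (1.08 ± 0.23 and 2.12 ± 0.23). For the cold in BAT 1 of 14 was called, Efemp1, which fell by 1.46 ± 0.28 (adjusted p = 0.00387), and no elastic fibre gene of the list was called higher.

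The enzymes and chaperones that fold and hydroxylate collagen had 7 of 19 called between BAT and sWAT at 28°C (6 lower) and 6 between BAT and mWAT (5 lower). At 36.8% and 31.6% of the list, against 27.5% and 32.5% of all genes, the share against mWAT was no higher than the background. P3h2, a prolyl hydroxylase of basement membrane collagen, differed from mWAT by -2.33 ± 0.26 and Plod2, the lysyl hydroxylase of collagen ends, by -1.58 ± 0.23. P4hb, a subunit of the prolyl hydroxylase, differed from sWAT by -0.82 ± 0.11, and Tmem38b, an ion channel of the endoplasmic reticulum, was higher in BAT than in sWAT by 1.55 ± 0.28. For the cold 0 of 19 were called in any depot by limma (6 in BAT, 5 in sWAT and 1 in mWAT at an unadjusted p under 0.05). Of all 18193 genes 4822, 2582 and 837 had such a p in these depots. Of 6 procollagen proteinases and enhancers 2 were called lower in BAT than in sWAT at 28°C and 3 lower than in mWAT (33.3% and 50% of the list, against 13% and 14.8% of all genes called lower), led by Adamts3 (-2.89 ± 0.41 and -1.85 ± 0.41), which trims procollagen.

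Collagen breakdown had 9 of 16 genes called between BAT and sWAT at 28°C, 8 of them lower in BAT, and 4 between BAT and mWAT, 3 of them lower. These are 56.2% and 25% of the list against 27.5% and 32.5% of all genes, so the share against mWAT lay under the background, and the medians were -1.23 and -0.29. Mmp3, a matrix metalloproteinase, differed by -3.10 ± 0.28, the inhibitor Timp1 by -2.41 ± 0.41 and Mmp2 by -1.73 ± 0.21. Timp4, an inhibitor made in adipose tissue, was higher in BAT than in sWAT (1.06 ± 0.21) and mWAT (2.01 ± 0.21), and it fell in BAT at 6°C by 1.0 ± 0.21 (adjusted p = 0.00582). Between sWAT and mWAT at 28°C 7 of the 16 were called (43.8%, against 7.87% of all genes), 6 of them higher in sWAT, with Mmp3 (2.80 ± 0.28) and Fap (2.29 ± 0.18) the largest.

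Of 8 collagen receptors 3 were called between BAT and sWAT at 28°C and 4 between BAT and mWAT, which is 37.5% and 50% of a list of few genes, against 27.5% and 32.5% of all genes. Ddr2, the receptor kinase for fibrillar collagen, was lower in BAT by 1.09 ± 0.20 and 1.65 ± 0.20. Itga1, an integrin chain, was higher in BAT than in sWAT (0.87 ± 0.17) and lower than in mWAT (-0.79 ± 0.17). Of 12 basement membrane partners 6 were called lower in BAT than in sWAT at 28°C, among them the laminin chains Lama2 (-1.68 ± 0.25) and Lama3 (-1.80 ± 0.24), and 1 lower than in mWAT, which is 50% and 8.33% of the list, the second under the 14.8% of all genes called lower there. Of 11 genes of TGF-beta signalling, a known inducer of collagen synthesis, 5 were called lower in BAT than in sWAT and 6 lower than in mWAT at 28°C (45.5% and 54.5% of the list, against 13% and 14.8% of all genes called lower), with Tgfb3 at -2.77 ± 0.34 and -2.21 ± 0.34 and Ccn2 at -1.78 ± 0.32 and -3.57 ± 0.32. For the cold limma called 0 genes of these 3 lists in any depot, and in BAT 3, 2 and 5 of them had an unadjusted p under 0.05. In BAT 4822 of all 18193 genes had such a p.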

How the data were processed

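Each of the 18 samples is 1 array of amplified adipose RNA, grouped by its title into 3 depots at 28 or 6°C. The authors background adjusted, summarized and normalized the raw intensities with Bioconductor (affy). The algorithm is not given in the sources used here, and the array type is named in different ways. The deposited table holds linear intensities, 1 a probe set on every array. Log2 intensities of 45037 probe sets (64 controls left out, no filter, no pseudocount) were fitted in R 4.3.3 with limma 3.58.1, with 1 mean a group, 12 contrasts and 12 residual degrees of freedom. Calls used a Benjamini-Hochberg adjusted p under 0.01, the level the study's methods give. The annotation table names 1 gene for 34958 probe sets, several for 932 and none for 9211. The percent of all genes called is over 18193 genes with 1 probe set each. The members and lists were chosen with earlier results of these data known, so no list test was made. Named were the members called in any contrast, the main chains and lysyl oxidases, the largest changes of each contrast, and up to 4 called genes of each other list. The single genes of a list called against its general direction were named after their values were seen. The fit was checked on simulated data. Alternatives were another threshold, only the compared groups, quantile normalization, median centring, a variance trend with robust estimates, gene means, a filter on dim probe sets, a muscle covariate, leaving out both mWAT arrays 3, and each array in turn. Sequences are from RefSeq, and figures were drawn with matplotlib 3.10.9. The number of arrays limits the precision.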

Additional observations from a re-analysis of the deposited data

Results flagged for a closer look

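The probe set of second highest mean of Col23a1 showed a cold response that differed between depots by the test of the difference itself. Its change from 28 to 6°C in BAT differed from that in sWAT by -2.14 ± 0.33 (adjusted p = 0.00525 by limma) and from that in mWAT by -2.0 ± 0.33 (adjusted p = 0.00619). The change was -2.17 ± 0.23 in BAT, -0.03 in sWAT and -0.17 in mWAT. The probe set of highest mean of Col23a1 gave differences of -0.76 and -0.53 and that of lowest mean -0.73 and -0.12, none of them called.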

How the results depend on the processing

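Of 95 calls of a member in a comparison, 51 were kept in every alternative, 44 were lost in at least 1 and 0 reversed. Counts that moved by over 1.5 times were as follows, beside 1 member for the cold in BAT, 0 for the cold in sWAT, 17 for BAT against mWAT at 28°C, 21 for the same at 6°C, and 5 for sWAT against mWAT at each temperature. With an adjusted p of 0.05 there were 4 for the cold in BAT, 1 for the cold in sWAT, 11 for sWAT against mWAT at 28°C, and 1 each for the cold response of BAT against sWAT and against mWAT. With only the compared groups fitted there were 2 for the cold in BAT, 12 for BAT against mWAT at 6°C, 3 for sWAT against mWAT at each temperature and 1 for the cold response of BAT against sWAT. Averaging each gene's probe sets gave 2 for the cold in BAT and 1 for that response, and a robust fit with a variance trend also gave 1 for it. The skeletal muscle covariate gave 3 for sWAT against mWAT at 6°C. Leaving out both mWAT arrays 3 gave 4 for the cold in BAT, 8 and 10 for sWAT against mWAT at 28 and 6°C, and 1 for each of the cold responses of BAT against sWAT and mWAT. With dim probe sets left out, which kept 25 members, there were 10 for BAT against mWAT at 28°C, 1 and 2 for sWAT against mWAT at 28 and 6°C, and 1 for the cold response of BAT against sWAT. The cause of the other shifts was not tested. Leaving out 1 array gave 1 to 3 members for the cold in BAT (2 without mWAT array 3 at 28°C, 3 without that at 6°C) and 0 for the cold in sWAT and in mWAT. It gave 16 to 26 for BAT against sWAT and 10 to 18 for BAT against mWAT at 28°C, lowest without BAT array 1, and 5 to 7 for sWAT against mWAT at 28°C. At 6°C the ranges were 16 to 23, 16 to 22 and 3 to 8, the last lowest without sWAT array 1 or 2 or mWAT array 1 or 2 and highest without mWAT array 3. The differences between cold responses gave 0 to 1 for BAT against sWAT (1 without mWAT array 2 or 3 at 6°C), 0 to 1 for BAT against mWAT (1 without mWAT array 3 at 6°C) and 0 for sWAT against mWAT. No paired analysis was possible because the labels carry no number or mouse shared between groups. Members with means under the array medians (22 of 46) have differences of uncertain size, since no detection values were used.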
